A study of Arabidopsis thaliana with 18 samples.

Results

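The 36 MIRNA loci described here make the microRNAs of 15 families: miR158, miR160, miR163, miR164, miR167, miR170, miR171, miR172, miR390, miR393, miR394, miR396, miR397, miR398 and miR408. They were chosen by locus identifier and family, not by their values, from a table of 32420 Arabidopsis thaliana genes. Most of these families occur across land plants, while miR158 and miR163 are known from crucifers. The measured quantity was the number of 22-nt small RNA reads assigned to each gene, divided by a size factor of the library (a normalized count). A size factor sets a library's depth from genes with reads in every library. Of the genes recovered in all 18 libraries 76 qualify, 2 of them among the 36 loci (MIR396a and MIR396b). Of the 36 loci, 31 had a 22-nt read in at least 1 library and 19 had a normalized count of 1 or more in 3 or more libraries, so that they could be tested.

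The samples were whole seedlings 14 days old of 3 genotypes, and each group had 3 biological replicates per the labels. The double mutant dcl4-2 dcl2-1, the mutant dcl4-2 and the wild type Col-0 were each grown on MS medium with 1 µM abscisic acid (ABA, a stress hormone) and on MS medium alone. dcl4-2 carries a mutation in DICER-LIKE 4 (DCL4), and the double mutant carries it together with a mutation in DICER-LIKE 2 (DCL2). Each mutant genotype is represented by a single allele combination. The protocol field on growth describes soil and aerial parts of older plants instead, and the grouping here rests on the sample fields. Tissue markers cannot be checked in 22-nt reads. The mutated genes cannot be checked either, since DCL4 had 5 reads and DCL2 4 reads over all 18 libraries. The deposited values are group means, headed TPM but found to be normalized counts, from which the reads of each library were recovered as whole numbers. Within each group the letters A to C run from the highest to the lowest size factor, which is not the order of the reads recovered for dcl4-2 on MS or for Col-0 on ABA, and no letter ties libraries of different groups together.

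A microRNA is cut from a hairpin precursor, in plants mainly by DCL1, and guides an ARGONAUTE protein to messenger RNAs with a matching site. DCL4 and DCL2 act mainly on long double-stranded RNA, and DCL2 is known for 22-nt products. A plant microRNA is usually 21 nt long, and 22-nt forms are known for starting the production of secondary small RNAs at their targets. The families here act on growth and stress genes: miR396 on growth-regulating transcription factors (GRFs), miR160 and miR167 on auxin response factors (ARFs), and miR393 on auxin receptors. miR164 acts on NAC transcription factors, miR170 and miR171 on the HAM transcription factors, and miR172 on AP2-like factors. miR390 starts TAS3 small RNAs, miR394 acts on an F-box gene, and miR397, miR398 and miR408 act on genes for copper proteins such as laccases and superoxide dismutases. miR163 acts on methyltransferase genes for small molecules.

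Mature sequences are shown because most of them are not 22 bases long, so that a 22-nt read at most loci cannot be the annotated form exactly. They were read from the TAIR10.1 genome at the positions annotated by RefSeq, run 5′ to 3′, and have the seed (bases 2 to 8) in capitals. The first 2 differ by G21U, counted from 1 at the 5′ end of miR396a-5p. The next pair differs by U1C, counted in the same way from miR158a-3p.
miR396a-5p: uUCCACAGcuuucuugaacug
miR396b-5p: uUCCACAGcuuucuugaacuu
miR158a-3p: uCCCAAAUguagacaaagca
miR158b: cCCCAAAUguagacaaagca
miR163: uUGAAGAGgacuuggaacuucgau
miR167c-5p: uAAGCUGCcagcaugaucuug
miR167d: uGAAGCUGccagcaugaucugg
miR398c-3p: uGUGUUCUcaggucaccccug
miR393a-5p: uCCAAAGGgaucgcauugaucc
miR390a-5p: aAGCUCAGgagggauagcgcc

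Across the 36 loci, 61 mature sequences are annotated, of which 7 are 20 bases long, 49 are 21, 3 are 22, 1 is 23 and 1 is 24. The 3 sequences of 22 bases are miR167d, miR393a-5p and miR393b-5p. Those 3 loci made between 0% and 25.0% of the summed normalized counts of the 36 loci in a library. miR163 is the sequence of 24 bases, and no read of 22 bases can hold it whole. The deposited table gives reads per gene without their sequences, so the ends of the reads at a locus are not known here. Some loci also share sequence: 26 of the 36 have at least 1 stretch of 22 bases in common with another of them.

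The loci were a small part of the 22-nt microRNA signal. Together they made between 1.42% and 4.91% of the normalized counts of all MIRNA loci in a library, counting 145 other MIRNA loci in the table. Per 100 bases of precursor, averaged over the 6 groups, MIR396b stood at 33.3 normalized counts, MIR158a at 32.4 and MIR396a at 24.0. This order differed between groups: in dcl4-2 on ABA MIR396a came first with 86.8 ± 39.2 normalized counts per 100 bases, before MIR158a at 54.8 ± 9.15 and MIR396b at 30.1 ± 3.86 (SD, n = 3 each). On the average over groups MIR167c (6.32 normalized counts per 100 bases), MIR398c (5.42), MIR163 (3.38), MIR160b (2.85) and MIR167d (2.54) followed. MIR396a, MIR396b and MIR158a together made between 57.1% and 80.4% of the summed normalized counts in a library. At the other end, MIR172c, MIR172d, MIR172e, MIR398b and MIR408 had 0 reads in 18 libraries. For the 3 miR172 loci a count of 0 allows a group level of up to 0.129 normalized counts in dcl4-2 on ABA and up to 1.49 normalized counts in dcl4-2 on MS (3 reads per group), with the other groups between, while MIR398b and MIR408 lie inside other genes and get no such limit. Every stretch of 22 bases that holds miR172c or miR172d-3p occurs more than once in the genome. For MIR172c and MIR172d the limits thus assume that reads matching several loci were counted, which was not tested. Intervals and such limits cover counting error only. With these 5, a total of 15 loci held under 1 normalized count in every group mean, and they are described by counts.

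Depth differed between libraries, which sets how firmly the lower loci can be read. Reads recovered at all genes but NIA1 and NIA2 (below) numbered between 1038 and 390890 per library. The shallowest, C of dcl4-2 dcl2-1 on MS, has a size factor of 0.0953, so that 1 read there is worth 10.5 normalized counts. The deepest, A of dcl4-2 on ABA, has a size factor of 12.7, and 1 read is worth 0.0789. Reads at the 36 loci numbered between 7 and 3480 per library. NIA1 and NIA2, which encode nitrate reductases, held 89.2% of all normalized counts at genes in dcl4-2 on ABA, against 44.1% in dcl4-2 on MS. In dcl4-2 dcl2-1 their share was 5.32% on ABA and 1.92% on MS, and in Col-0 it was 0.460% on ABA and 5.01% on MS.

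**Figure D1:**
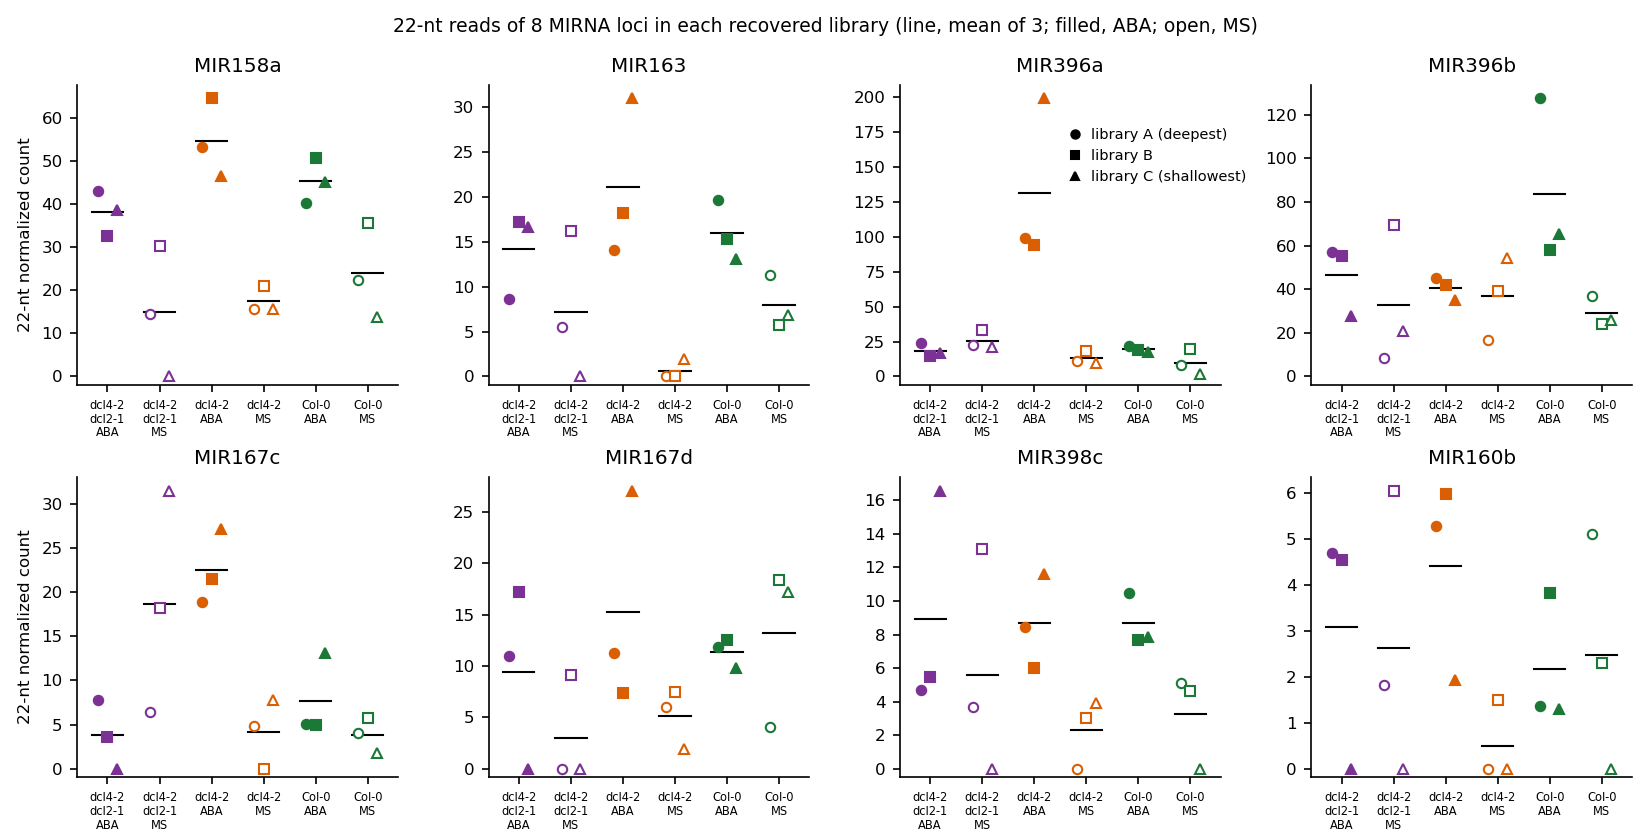
22-nt normalized counts (vertical axes, linear, each panel with its own scale) of 8 loci in the 3 recovered libraries of each group; symbols mark libraries A to C, filled symbols ABA, open symbols MS, and lines the mean of 3. MIR396a stands at 94.5 to 199 normalized counts in dcl4-2 on ABA, above every other library, while MIR396b does not stand apart there.

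Growth on ABA went with more 22-nt reads at these loci in all 3 genotypes' means, with the largest gap in dcl4-2. The 36 loci of dcl4-2 dcl2-1 summed to 151 ± 33.0 normalized counts on ABA, against 125 ± 90.0 normalized counts on MS (SD, n = 3 each, as for the next sums). The ABA libraries of dcl4-2 summed to 321 ± 74.1 normalized counts, against 84.9 ± 23.5 normalized counts for its MS libraries. Those of Col-0 came to 203 ± 43.8 normalized counts, against 96.6 ± 25.7 normalized counts without ABA. The ABA libraries did not overlap the MS libraries in dcl4-2 or in Col-0, and they did overlap in the double mutant. The 145 other MIRNA loci were also higher on ABA in the mean: 5833 ± 1909 normalized counts against 4412 ± 131 normalized counts in dcl4-2 dcl2-1, 10445 ± 3126 normalized counts against 3925 ± 1969 normalized counts in dcl4-2, and 8591 ± 3173 normalized counts against 4024 ± 815 normalized counts in Col-0, each with MS after ABA. The values depend on the scaling: when the reads at all genes but NIA1 and NIA2 were made equal instead, an alternative added after the values were seen, 0 of the loci passed in each comparison below. In such whole-seedling samples fewer cells of a type and less RNA per cell cannot be told apart.

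**Figure D2:**
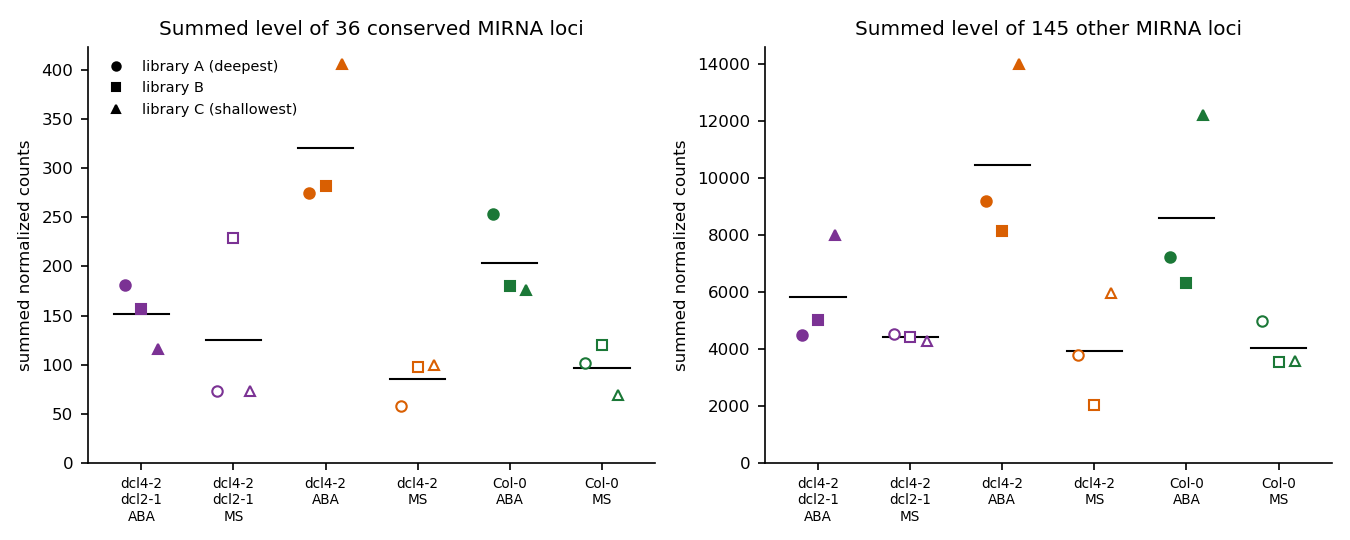
Summed normalized counts (vertical axes, from 0) of the 36 loci on the left and of 145 other MIRNA loci on the right, per recovered library, with lines at the means of 3. Both sums are highest on average in dcl4-2 on ABA, at 321 and 10445 normalized counts.

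In dcl4-2, 3 of the 19 tested loci rose on ABA and none fell (limma on log2(normalized count + 1), Benjamini-Hochberg adjusted p under 0.05 over 5695 genes). Across all genes tested, 5.3% were called higher and 0.281% lower. When the libraries were rescaled so that the 145 other MIRNA loci had equal sums, 17 of the loci could be tested and 0 passed, and likewise 0 of 17 with equal reads at genes. The 3 loci were MIR163, MIR396a and MIR167c. The median fold change of the 19 was 1.42 on the log2 scale, beside 0.51 for all genes tested. ABA libraries lay all above the MS libraries for 11 of the 19, as for 25.5% of all genes. They lay all below for 0 of the 19, as for 1.91% of all genes. Among the 11, MIR393a and MIR393b support nothing, since they reached 1 normalized count in ABA libraries alone. MIR160a supports nothing either, since it could be tested only because of its dcl4-2 libraries on ABA. The same holds for MIR394a and MIR398a, which are among the 19 but not the 11. The medians of all comparisons with dcl4-2 on ABA hold these loci. MIR160a, MIR390a and MIR390b, also among the 11, had 0 reads in the shallow libraries of dcl4-2 on MS.

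MIR163 (AT1G66725, chr1:24884066-24884396 on the plus strand, TAIR10.1) had 14.1, 18.2 and 31.0 normalized counts in dcl4-2 on ABA, against 0, 0 and 1.95 normalized counts in dcl4-2 on MS. The MS value is 1 read in 3 libraries, and every ABA library lay above it. Pooled over libraries, 377 reads on ABA against 1 on MS gave a ratio of 32.6 (exact 95% interval 5.82 to 1293). The limma fold change was 3.87 ± 0.82 (log2, SE) with an adjusted p of 0.00229. Without dcl4-2 ABA library C its adjusted p was 0.0604. With the other MIRNA loci made equal the fold change was 3.08 (adjusted p = 0.0975), and with equal reads at genes 3.11 (0.104). MIR163 was also present in the other genotypes on MS, at 5.48, 16.1 and 0 normalized counts in dcl4-2 dcl2-1 and at 7.96 ± 2.90 normalized counts in Col-0 (SD, n = 3).

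MIR396a (AT2G10606) had 99.4, 94.5 and 199 normalized counts in dcl4-2 on ABA, against 10.8, 18.04 and 9.73 normalized counts in dcl4-2 on MS. All 3 ABA libraries lay far above the MS ones, and 1260, 947 and 103 reads stood behind them. The limma fold change was 3.21 ± 0.75 (log2, SE; adjusted p = 0.00619). Without dcl4-2 ABA library C it was 2.87 with an adjusted p of 0.0992, and with the other MIRNA loci made equal it was 1.74 (adjusted p = 0.404), and with equal reads at genes 2.15 (0.291).

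MIR167c (AT3G04765, chr3:1306622-1306781 on the minus strand), a source of miR167 that targets ARF6 and ARF8, had 18.9, 21.5 and 27.1 normalized counts in dcl4-2 on ABA, against 4.81, 0 and 7.78 normalized counts in dcl4-2 on MS. Its limma fold change was 2.65 ± 0.83 (log2, SE; adjusted p = 0.0441). The call was lost without dcl4-2 ABA library A, B or C (adjusted p = 0.0859, 0.0742 and 0.189) and likewise when library A or B of dcl4-2 on MS was left out (0.0536 and 0.246). With the other MIRNA loci made equal the adjusted p was 0.470, and with equal reads at genes 0.442.

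MIR396b (AT5G35407), the other source of miR396, had 45.0, 42.0 and 34.8 normalized counts in dcl4-2 on ABA, against 16.8, 39.1 and 54.5 normalized counts in dcl4-2 on MS. Its groups overlapped, and the limma fold change was 0.28 ± 0.69 (log2, SE). MIR158a (AT3G10745, chr3:3366331-3366430 on the minus strand) had 53.3, 64.6 and 46.4 normalized counts on ABA, against 15.6, 21.0 and 15.6 normalized counts on MS. These groups did not overlap, and its adjusted p in limma was 0.177. In the authors' deposited table MIR158a passed as well (log2 fold change 1.67, adjusted p 0.00947), beside MIR163, MIR396a and MIR167c.

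**Figure D3:**
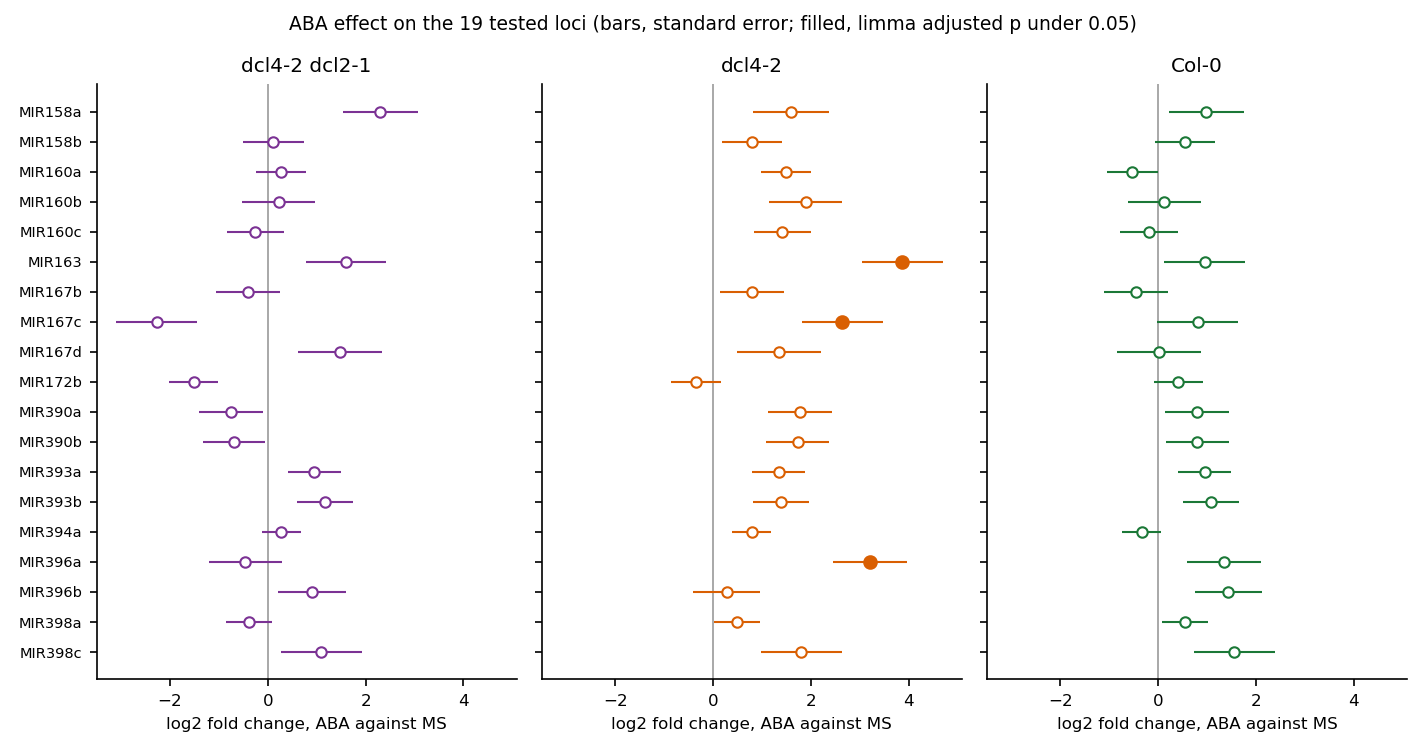
Log2 fold change of ABA against MS (horizontal axes, log2(normalized count + 1) scale) with its standard error for the 19 tested loci, in dcl4-2 dcl2-1, dcl4-2 and Col-0 from left to right. Filled points passed at an adjusted p under 0.05 in limma: MIR163, MIR167c and MIR396a in dcl4-2.

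In Col-0, no member passed on ABA against MS with limma, where 0.316% of all genes were called higher and 0.351% lower. As many passed with voom weights and in the authors' deposited test, 0 in each. With limma, 1 locus had an unadjusted p under 0.05: MIR396b, with 128, 57.9 and 65.3 normalized counts on ABA, against 36.8, 24.2 and 25.8 normalized counts on MS. Its fold change was 1.43 ± 0.69 (log2, SE; limma adjusted p = 0.285), and its libraries did not overlap. The median fold change of the 19 loci was 0.80, beside 0.27 for all genes. ABA libraries lay all above the MS libraries for 6 of the 19, as for 16.3% of genes. They lay all below for 0, as for 2.91% of genes. Among the 6, MIR393a and MIR393b again support nothing, with 1 read each in ABA libraries B and C and 0 reads on MS. MIR158a had 40.2, 50.8 and 45.0 normalized counts on ABA, against 22.5, 35.7 and 13.8 normalized counts on MS, with no overlap. MIR163 had 19.6, 15.3 and 13.1 normalized counts on ABA, against 11.2, 5.76 and 6.89 normalized counts on MS, also with no overlap.

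In dcl4-2 dcl2-1, no member passed on ABA against MS with limma either (0.14% of all genes were called higher and 0.0351% lower), and 4 of the 19 had an unadjusted p under 0.05. Voom weights and the authors' deposited test gave 0 as well. The largest fold changes were those of MIR158a (2.30 ± 0.77, adjusted p = 0.250) and MIR167c (-2.27 ± 0.83, adjusted p = 0.328), both on the log2 scale with SE and limma's adjusted p. MIR158a had 43.0, 32.6 and 38.7 normalized counts on ABA, against 14.6, 30.3 and 0 normalized counts on MS, and was the 1 locus of 19 whose libraries did not overlap and were higher (2.46% of all genes), while 0 of 19 were lower without overlap (0.913% of all genes). MIR167c had 7.82, 3.63 and 0 normalized counts on ABA, against 6.39, 18.2 and 31.5 normalized counts on MS. The value of 0 for MIR158a stands in library C on MS, where 1 read is worth 10.5 normalized counts. In the same group MIR167c had 3 reads in that library. In Col-0, MIR167c had 5.02, 4.92 and 13.1 normalized counts on ABA, against 4.09, 5.76 and 1.72 normalized counts on MS, and these groups overlapped.

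Averaged over the 3 genotypes, a comparison added after the values had been seen, 6 of the 19 loci passed as higher on ABA and none as lower (limma; 10.8% of all genes were called higher and 0.702% lower). They were MIR163, MIR158a, MIR396a, MIR398c, MIR393a and MIR393b, the last pair being sources of the auxin-receptor regulator miR393. MIR393a and MIR393b met the filter on low values through ABA libraries alone, so their calls support nothing, which leaves 4. The largest averaged fold change was that of MIR163, at 2.14 ± 0.48 (log2, SE; adjusted p = 0.00196). With the other MIRNA loci or the reads at genes made equal 0 of 17 loci passed (adjusted p of MIR163 0.140 and 0.0580), and without the filter on low values 3 of 31 did (MIR163, MIR393a and MIR393b). MIR396a did not rise in dcl4-2 dcl2-1, with means of 18.4 normalized counts on ABA against 25.7 normalized counts on MS. Its means were 131 against 12.9 normalized counts in dcl4-2 and 19.4 against 9.82 normalized counts in Col-0. The call of MIR396a was lost without Col-0 MS library C, Col-0 ABA library A or C, dcl4-2 ABA library C or dcl4-2 dcl2-1 ABA library A (adjusted p between 0.0511 and 0.0789). That of MIR398c was lost without Col-0 MS library C, Col-0 ABA library A or C, dcl4-2 MS library A, dcl4-2 ABA library C or dcl4-2 dcl2-1 MS library C (0.0593 to 0.0963).

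MIR393a (AT2G39885) and MIR393b (AT3G55734) had a read in 8 of 9 ABA libraries each, 42 reads at MIR393a and 48 at MIR393b, against 0 reads in all 9 MS libraries. Of these reads 32 and 34 stood in dcl4-2 on ABA, whose libraries A and B are the deepest. MIR393a had 1.56, 1.81 and 0 normalized counts in dcl4-2 dcl2-1 on ABA, 0.947, 1.896 and 1.93 normalized counts in dcl4-2 on ABA, and 1.83, 0.546 and 0.653 normalized counts in Col-0 on ABA. MIR393b had 3.13, 1.81 and 0 normalized counts in dcl4-2 dcl2-1, 1.03, 1.996 and 1.93 normalized counts in dcl4-2 and 2.74, 0.546 and 0.653 normalized counts in Col-0, all on ABA. The ABA means of MIR393a were 1.13 normalized counts in dcl4-2 dcl2-1, 1.59 normalized counts in dcl4-2 and 1.01 normalized counts in Col-0, against MS levels of up to 1.38, 1.49 and 1.24 normalized counts that 0 reads allow in the same genotypes. For MIR393b the ABA means were 1.65, 1.65 and 1.31 normalized counts in the same order. At the depth of the MS libraries a difference on ABA was thus not detectable for MIR393a in dcl4-2 dcl2-1 or Col-0, and the other means lay little above the limit.

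The double mutant was set beside dcl4-2 on ABA to ask which loci had fewer 22-nt reads where DCL2 was mutated as well. MIR396a and MIR167c fell, which are 2 of the 19 tested loci, and none rose (limma; 6.18% of all genes were called lower and 0.105% higher). MIR396a had 24.2, 14.5 and 16.6 normalized counts in dcl4-2 dcl2-1, against 99.4, 94.5 and 199 normalized counts in dcl4-2. The fold change was -2.71 ± 0.75 (log2, SE; limma adjusted p = 0.0195), and the groups did not overlap. MIR167c had 7.82, 3.63 and 0 normalized counts in dcl4-2 dcl2-1, against 18.9, 21.5 and 27.1 normalized counts in dcl4-2, with no overlap. The dcl4-2 libraries are those of the ABA comparison above. The fold change of MIR167c was -2.75 ± 0.83 (log2, SE; limma adjusted p = 0.0336).

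The authors' deposited table called both loci lower as well, with log2 fold changes of -2.76 for MIR396a (adjusted p = 6.68e-06) and -2.11 for MIR167c (adjusted p = 0.0352). The median over the 19 loci was -0.68, beside -0.51 for all genes, and 4 of the 19 had libraries that did not overlap and were lower, as 25.7% of all genes did: MIR158a, MIR160c, MIR167c and MIR396a. None was higher without overlap (1.35% of all genes). Both calls were lost without dcl4-2 ABA library A, without dcl4-2 ABA library C or without dcl4-2 dcl2-1 ABA library B (limma adjusted p between 0.0578 and 0.160), and the call of MIR167c also without dcl4-2 ABA library B (0.0618) or dcl4-2 dcl2-1 ABA library C (0.216). With the other MIRNA loci made equal the fold changes were -1.86 for MIR396a (adjusted p = 0.624) and -1.80 for MIR167c (adjusted p = 0.717), and with equal reads at genes -1.72 and -1.85 (0.461 and 0.484). MIR163 and MIR158a, the other loci that were high in dcl4-2 on ABA, had 8.60, 17.2 and 16.6 normalized counts and 43.0, 32.6 and 38.7 normalized counts in dcl4-2 dcl2-1, beside 14.1, 18.2 and 31.0 normalized counts and 53.3, 64.6 and 46.4 normalized counts in dcl4-2. Neither passed.

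The difference between ABA effects was tested itself. For MIR167c the ABA effect in dcl4-2 dcl2-1 was lower than that in dcl4-2 by 4.92 ± 1.18 on the log2 scale (limma interaction, adjusted p = 0.0365). It was the 1 member of 19 that passed, where 0.193% of all genes were called lower and 0.0176% higher. The call was lost without any 1 of dcl4-2 MS library B, dcl4-2 ABA libraries A, B and C, dcl4-2 dcl2-1 MS library B and dcl4-2 dcl2-1 ABA library C (adjusted p between 0.0547 and 0.284), and with equal reads at genes it was 0.2004. For MIR396a the same difference was -3.67 ± 1.06 (adjusted p = 0.177). Between dcl4-2 and Col-0 no member's ABA effect differed with limma (0.263% of genes called higher and 0% lower; 3 members had an unadjusted p under 0.05, and voom weights gave 0 calls). Between the double mutant and Col-0 none differed either (0.14% higher and 0.0176% lower; 2 members with an unadjusted p under 0.05; 0 calls with voom weights).

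The other 5 genotype comparisons on a single medium gave 0 calls among the 19 loci with limma. These were dcl4-2 dcl2-1 against dcl4-2 on MS (0.0702% of genes called higher and 0.544% lower; 5 members with an unadjusted p under 0.05), dcl4-2 dcl2-1 against Col-0 on MS (0.0176% and 1.19%; 5 members) and dcl4-2 dcl2-1 against Col-0 on ABA (0% and 0.615%; 0 members). For dcl4-2 against Col-0 the shares were 0.0527% and 0.246% on MS, with 1 member at an unadjusted p under 0.05, and 0.14% and 0.0878% on ABA, with 4 members. With voom weights these comparisons gave 0 calls, except 1 (MIR396a) in dcl4-2 against Col-0 on ABA. On MS, dcl4-2 dcl2-1 had 1 locus higher than dcl4-2 without overlap (MIR396a; 0.527% of all genes) and 0 lower (3.79%). Against Col-0 on MS the double mutant had 2 loci higher without overlap (MIR167c and MIR396a; 0.509% of all genes) and 0 lower (8.64%). Against Col-0 on ABA it had 0 higher (0.808%) and 1 lower (MIR396b; 21.7%). On MS, MIR163 had 0, 0 and 1.95 normalized counts in dcl4-2, against 11.2, 5.76 and 6.89 normalized counts in Col-0 (limma fold change -2.60 ± 0.82, log2, SE; adjusted p = 0.189). It was the 1 locus of 19 lower without overlap (3.6% of all genes), and 0 were higher without overlap (1.35%). On ABA, MIR396a had 99.4, 94.5 and 199 normalized counts in dcl4-2, against 21.5, 19.1 and 17.6 normalized counts in Col-0 (limma fold change 2.61 ± 0.75, log2, SE; adjusted p = 0.180), and 6 of the 19 loci were higher without overlap (9.1% of all genes). Of these 6, MIR160a could be tested only because of its dcl4-2 libraries on ABA and supports nothing. In the same comparison MIR396b was the 1 locus lower without overlap (6.58% of all genes), with 45.0, 42.0 and 34.8 normalized counts in dcl4-2, against 128, 57.9 and 65.3 normalized counts in Col-0.

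The ratio of the 2 miR396 loci does not depend on the scaling of a library, because both are counted in the same one. Their precursors are shown to compare the sequences that the reads could come from. They are from the TAIR10.1 genome with RefSeq's annotation, the sequence of MIR396a at chr2:4142323-4142473 on the minus strand and that of MIR396b at chr5:13611798-13611932 on the plus strand. Capitals mark the annotated mature sequences.
MIR396a: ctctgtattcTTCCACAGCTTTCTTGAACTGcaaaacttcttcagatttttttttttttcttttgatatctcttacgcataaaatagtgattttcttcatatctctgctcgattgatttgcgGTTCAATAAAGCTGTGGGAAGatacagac
MIR396b: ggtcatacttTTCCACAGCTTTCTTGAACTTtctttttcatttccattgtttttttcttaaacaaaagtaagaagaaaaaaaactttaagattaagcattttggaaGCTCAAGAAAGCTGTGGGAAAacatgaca

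The precursors share no stretch of 22 bases. All 114 stretches of MIR396b occur once in the genome, and 129 of the 130 of MIR396a do, so a perfectly matching 22-nt read points to 1 of the 2. The sources used here do not say how reads with mismatches were assigned. MIR396a made 68.9%, 69.2% and 85.1% of the reads of the pair in dcl4-2 on ABA, with exact 95% binomial intervals from 66.7% to 71.0%, from 66.7% to 71.7% and from 77.5% to 90.9%. In dcl4-2 on MS the share was 39.1%, 31.6% and 15.2%. In Col-0 it was 14.4%, 24.8% and 21.3% on ABA, and 18.2%, 44.7% and 6.25% on MS. In dcl4-2 dcl2-1 it was 29.8%, 20.8% and 37.5% on ABA.

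In all 3 libraries of dcl4-2 on ABA MIR396a outnumbered MIR396b, and in no library of dcl4-2 on MS, of Col-0 or of the double mutant on ABA did it do so. In dcl4-2 dcl2-1 on MS the share was 73.5% and 32.4% in libraries A and B, and 2 of 4 reads in library C. For MIR396b in that group the deposited mean has 2 solutions, of which the one with the smaller spread was used. The other gives shares of 73.5%, 66.0% and 22.2%. The mean log2 ratio of MIR396a to MIR396b was 1.61 ± 0.79 in dcl4-2 on ABA, against -1.41 ± 0.96 in dcl4-2 on MS and -2.02 ± 0.50 in Col-0 on ABA (SD, n = 3 each). In dcl4-2 dcl2-1 on ABA it was -1.30 ± 0.60. Each of the 3 differences from dcl4-2 on ABA has an exact two-sided permutation p of 0.1, the smallest that 3 libraries against 3 can give, and 0.3 after adjustment over 9 comparisons. The pair was chosen for this ratio after the values were seen. The levels not given above were, for MIR396a, 22.8, 33.3 and 20.99 normalized counts in dcl4-2 dcl2-1 on MS and 8.18, 19.6 and 1.72 normalized counts in Col-0 on MS. MIR396b had 57.1, 55.3 and 27.6 normalized counts in dcl4-2 dcl2-1 on ABA, against 8.22, 69.6 and 20.99 normalized counts in dcl4-2 dcl2-1 on MS, and these groups overlapped.

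**Figure D4:**
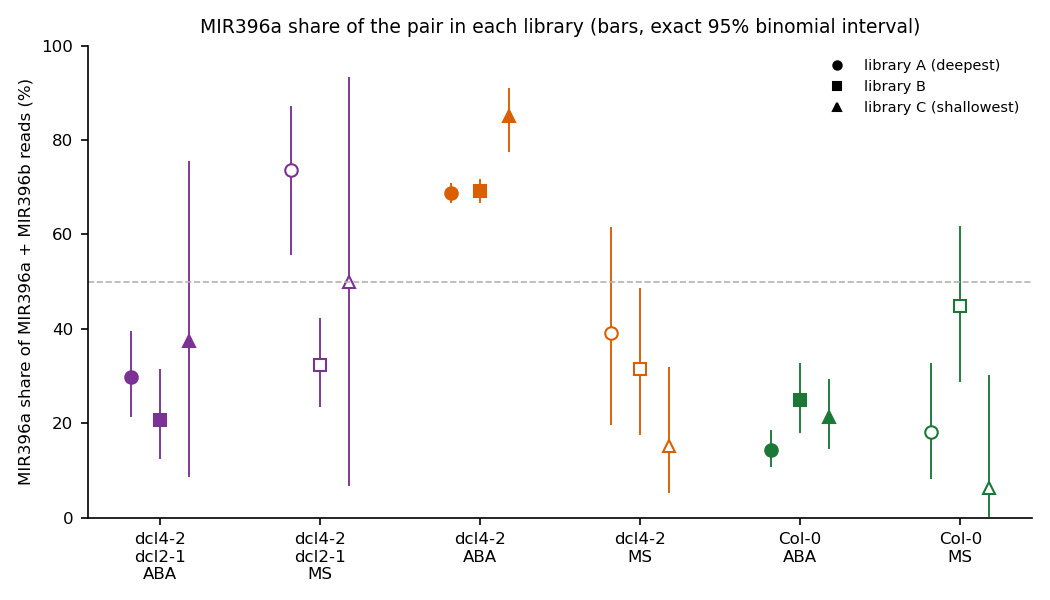
MIR396a share (vertical axis, percent) of the reads of MIR396a and MIR396b together, per recovered library, with the exact 95% binomial interval; the dashed line marks equal reads. The 3 libraries of dcl4-2 on ABA lie at 68.9% to 85.1%, and those of dcl4-2 on MS at 15.2% to 39.1%.

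Loci with the same mature sequence had alike reads in some pairs and unlike reads in others, which limits what is said of single loci. MIR390a and MIR390b have the same miR390-5p. Of the 10 libraries with a read at either, their reads were equal in 6 and at most 3 apart in the others (85 and 78 in all). MIR393a and MIR393b carry the same 22-base miR393-5p, and of the 8 libraries with a read at either, all on ABA, their reads were equal in 4 and at most 2 apart in the others. MIR394a and MIR394b carry the same miR394 of 20 bases and share 7 stretches of 22 bases. Their reads were equal in 0 of the 5 libraries with a read at either and up to 11 apart (31 and 15 in all). A read that matches both loci of a pair cannot be told apart, so the loci of these pairs are not separate measurements. The counts and medians over the tested loci do hold MIR390a, MIR390b, MIR393a and MIR393b each as a locus. The same reads may thus enter them more than once. MIR390a (AT2G38325) stood at 2.44 ± 0.53 normalized counts in dcl4-2 on ABA, against 0 in all 3 libraries of dcl4-2 on MS, and did not pass (limma adjusted p = 0.0748).

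MIR398b (AT5G14545) differed from its partner in every library where that had reads. It shares 38 stretches of 22 bases with MIR398c (AT5G14565), including both mature sequences, and had 0 reads in 18 libraries where MIR398c had 267. MIR398b lies at chr5:4691022-4691137 (TAIR10.1), and all its 116 bases fall inside the gene AT5G14550 on the opposite strand, which had 11 reads. MIR408 (AT2G47015) also had 0 reads, and its 218 bases lie inside AT2G47020 on the opposite strand, which had 0 reads. MIR397a is the third locus inside another gene, ENT6, again on the opposite strand, and had 10 reads. Whether the authors' counting sets reads aside where genes overlap was not tested, so the zeros of MIR398b and MIR408 are read as listed values and not as absence. MIR398c itself had 8.44, 5.99 and 11.6 normalized counts in dcl4-2 on ABA, against 0, 3.01 and 3.89 normalized counts in dcl4-2 on MS (limma adjusted p = 0.156). In dcl4-2 dcl2-1 it had 4.69, 5.44 and 16.6 normalized counts on ABA, against 3.65, 13.1 and 0 normalized counts on MS, which overlapped. In Col-0 it had 10.5, 7.65 and 7.83 normalized counts on ABA, against 5.11, 4.60 and 0 normalized counts on MS, without overlap.

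**Figure D5:**
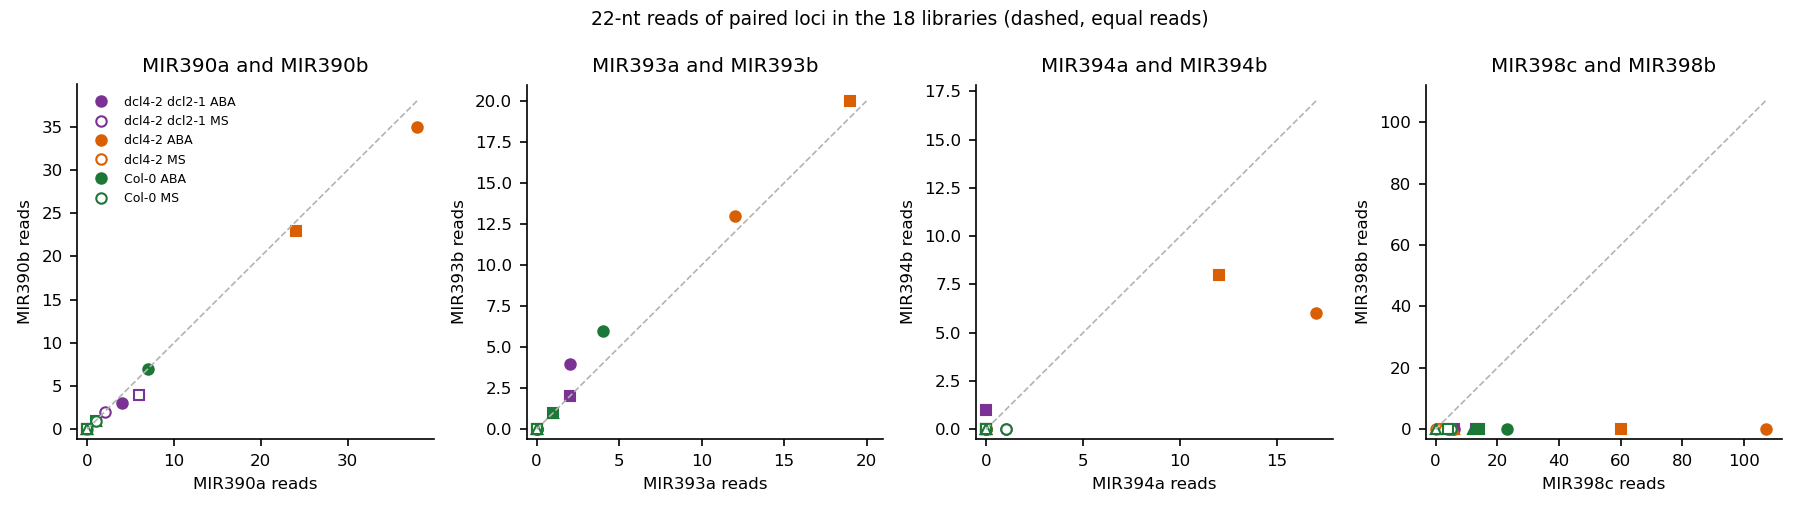
Reads of 1 locus against reads of its partner in each of the 18 recovered libraries, for MIR390a and MIR390b, MIR393a and MIR393b, MIR394a and MIR394b, and MIR398c and MIR398b; the dashed line marks equal reads and the axes are linear. The first 2 pairs are at most 3 reads off the line, MIR394a and MIR394b up to 11, and MIR398b is at 0 in every library.

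Among the 3 miR160 loci, which share the same mature sequence and act on ARF10 and its relatives, MIR160b (AT4G17788) led with 5.29, 5.99 and 1.93 normalized counts in dcl4-2 on ABA, against 0, 1.503 and 0 normalized counts in dcl4-2 on MS. Its groups did not overlap, though the values of 1.93 and 1.503 normalized counts that separate them are 1 read each. Its adjusted p in limma was 0.0963. MIR160a and MIR160c had at most 5.80 normalized counts in a library, that value being 3 reads of dcl4-2 ABA library C. MIR167d, whose mature form is 22 bases long, had 11.3, 7.38 and 27.1 normalized counts in dcl4-2 on ABA, against 6.02, 7.52 and 1.95 normalized counts in dcl4-2 on MS, and its groups overlapped. In dcl4-2 dcl2-1 MIR167d had 10.9, 17.2 and 0 normalized counts on ABA, against 0, 9.08 and 0 normalized counts on MS, and in Col-0 11.9, 12.6 and 9.79 normalized counts on ABA, against 4.09, 18.4 and 17.2 normalized counts on MS. These groups overlapped too.

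The remaining loci had few reads over the 18 libraries: MIR158b had 60, MIR167b 38, MIR398a 23, MIR172b 14, MIR167a 13 and MIR172a 1. The 3 miR164 loci had between 10 and 19 reads each, MIR394a 31, MIR394b 15, and each of MIR170, MIR171a, MIR171b, MIR171c, MIR397a and MIR397b under 20. No change is read from these.

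Reads of 22 nt at the targets of these families were looked at beside the loci, from a list of 53 genes chosen with earlier results of these data known. Of the 53 targets, 12 could be tested, and 5 passed in at least 1 comparison. HAM1, a target of miR170 and miR171, had 10.7, 4.49 and 15.5 normalized counts in dcl4-2 on ABA, against 1.203, 0 and 0 normalized counts in dcl4-2 on MS (limma adjusted p = 0.0184). In dcl4-2 dcl2-1 on ABA it had 0.782, 0 and 0 normalized counts, against the same dcl4-2 libraries (limma adjusted p = 0.00972). The pooled ratios were 16.4 for ABA against MS in dcl4-2 (exact 95% interval 2.90 to 650) and 0.0479 for dcl4-2 dcl2-1 against dcl4-2 on ABA (0.00121 to 0.270). In Col-0, HAM1 had 26.0, 2.73 and 2.61 normalized counts on ABA, against 8.18, 0 and 24.1 normalized counts on MS. Of all genes, 5.3% were called higher on ABA in dcl4-2 and 6.18% lower in dcl4-2 dcl2-1 against dcl4-2 on ABA. HAM1 was the 1 target of 12 called in each of these contrasts. The authors' deposited table did not call it (adjusted p = 0.126 for ABA against MS in dcl4-2 and 0.135 for dcl4-2 dcl2-1 against dcl4-2 on ABA). Without dcl4-2 ABA library C the limma adjusted p values were 0.140 and 0.109, and the call for ABA against MS was also lost without dcl4-2 ABA library A (0.0562) or library B or C of dcl4-2 on MS (0.0681 and 0.0634). With equal reads at genes neither call held (0.275 and 0.222). HAM2, its close relative, passed as higher on ABA averaged over the genotypes (log2 fold change 1.44 ± 0.46, SE; limma adjusted p = 0.0318), a call that held in 16 of 27 alternatives. It was the 1 target of 12 called higher there, where 10.8% of all genes were.

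For 3 auxin response factors the 22-nt reads were highest in Col-0 on MS. ARF6, a target of miR167, had 0, 0 and 3.26 normalized counts in Col-0 on ABA, against 45.0, 2.30 and 43.1 normalized counts in Col-0 on MS (limma adjusted p = 0.00227). On MS it had 1.83, 0 and 0 normalized counts in dcl4-2 dcl2-1 and 0, 1.503 and 0 normalized counts in dcl4-2 (limma adjusted p = 0.000466 and 0.00126 against Col-0). ARF8, another target of miR167, and ARF10, a target of miR160, were lower in the same 3 comparisons, so that 3 of 12 targets passed as lower in each. ARF8 and ARF10 could be tested only because of their libraries of Col-0 on MS, the group where they are high. Their calls thus support nothing, which leaves ARF6. Of all genes, 0.351% were called lower on ABA in Col-0. Against Col-0 on MS, 1.19% were called lower in dcl4-2 dcl2-1 and 0.246% in dcl4-2. The levels in Col-0 on MS were 9.20, 1.15 and 6.89 normalized counts for ARF8 and 10.2, 1.15 and 10.3 normalized counts for ARF10. In all 3 genes Col-0 MS library B stood far below libraries A and C. Without Col-0 MS library A, none of the 3 passed on ABA against MS in Col-0 (limma adjusted p between 0.0853 and 0.106), and without library C none did either (0.109 to 0.135). Nor did any without Col-0 ABA library A or B (0.0743 to 0.132), and the authors' deposited table did not call ARF6 or ARF10 in that comparison (adjusted p = 0.152 and 0.151). The ABA effects of ARF6, ARF8 and ARF10 in dcl4-2 differed from those in Col-0 (limma interaction, adjusted p between 0.00691 and 0.0445). For ARF8 and ARF10 these calls support nothing either, for the same reason. Of all genes, 0.263% were called higher in this interaction and 0% lower. With equal reads at genes none of these differences passed (0.05003 to 0.182), nor did any without Col-0 MS library A (0.0537 to 0.119). Without that library none of the 3 genes passed in dcl4-2 against Col-0 on MS either (0.0720 to 0.0912).

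Of 8 genes of microRNA biogenesis and action, 6 had a 22-nt read and 2 could be tested. AGO1, the main effector of microRNAs, had 0 normalized counts in the 3 libraries of dcl4-2 dcl2-1 on ABA, against 4.26, 4.29 and 1.93 normalized counts in dcl4-2 on ABA (limma adjusted p = 0.0317). The call was lost without any 1 of the 6 libraries of these groups (adjusted p between 0.0604 and 0.110) and with equal reads at genes (0.383), and the authors' deposited table gave an adjusted p of 0.150.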

How the data were processed

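Small RNA reads of 22 nt were counted per gene by the authors. The deposited table holds 1 value per gene and group, headed TPM per the file headers, and is not TPM: the steps of each group are the same for every gene, and of the 18 library divisors recovered 13 equal the ratio of 1 gene's reads to its geometric mean over libraries (tolerance 1e-09), as a median-of-ratios size factor does. The deposited signal is thus the authors' counts divided by size factors and averaged per group, and cannot be read as reads of a library total. It also holds log2 fold changes and p-values of the authors' own comparisons, as deposited. The submitters' processing notes name Bowtie 1.2.2, SAMtools 1.9, DESeq2 and TAIR10; these sources give neither mismatches nor multiple mapping.

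Each group mean is a sum of 3 whole-read counts with 3 fixed steps, from which the reads of each library were inferred; no letter matches a labelled replicate. The solution was the only one except for 35 genes of dcl4-2 dcl2-1 on MS, MIR396b among them, where the one with the smallest spread between libraries was used, which favours small p-values for those genes. The design had expected values per library in another unit, and its test was kept. NIA1 and NIA2 stayed out of the fits.

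The 36 loci, the lists and the added alternatives were chosen with earlier results of these data known. limma 3.58.1 (R 4.3.3) with a trend was fitted to log2(normalized count + 1) over all 6 groups and the 5695 genes that reached a normalized count of 1 in 3 or more libraries. Tests are two-sided, with Benjamini-Hochberg adjustment over all genes and a threshold of 0.05. The fit was tested on data simulated with the same added spread for every gene and with known size factors. That test does not cover the scaling between libraries. Fold changes on this scale understate those of low genes. Precision is lowest in library C of dcl4-2 dcl2-1 on MS, where 1 read is worth 10.5 normalized counts. Loci that passed in a comparison, or were among the 6 highest, are given by library, and targets are named only where they passed. Exact tests used scipy 1.17.1 in Python 3.11.15. Sequences were read from the TAIR10.1 genome at RefSeq's positions. The alternatives were other pseudocounts, no filter, other scalings, voom weights, fewer groups, each library left out and the authors' test. The TAS3 loci were not analysed here.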

Additional observations from a re-analysis of the deposited data

Results flagged for a closer look

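The ABA effect on MIR167c differed between genotypes, by -4.92 on the log2 scale for dcl4-2 dcl2-1 against dcl4-2 (limma interaction, adjusted p = 0.0365). ABA against MS gave -2.27 in dcl4-2 dcl2-1 and 2.65 in dcl4-2 (log2). The group means behind these were 3.81 normalized counts on ABA against 18.7 normalized counts on MS in dcl4-2 dcl2-1, and 22.5 normalized counts against 4.20 normalized counts in dcl4-2. Over the 22 alternatives the difference lay between -5.65 and -3.04, with adjusted p between 0.00948 and 0.622, and it did not pass in 13 of them.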

How the results depend on the processing

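Among the 19 tested loci and the named targets, no named change turned its direction under any alternative run. For ABA against MS in dcl4-2, where 3 loci passed, 0 passed without the filter on low values, 0 with the other MIRNA loci made equal, 12 with TMM scaling and 7 with only the compared groups, where the genes called higher over all tested also numbered 1233 and 477 beside 302, and leaving out 1 library gave 0 to 3. For dcl4-2 dcl2-1 against dcl4-2 on ABA, where 2 passed, 0 passed without the filter, 0 with the other MIRNA loci made equal, 0 without the 3 shallow libraries, and 0 to 2 with 1 library left out. For the difference in ABA effect between these genotypes, where 1 passed, 0 passed with a pseudocount of 0.5, without the filter, with the other MIRNA loci made equal, with TMM scaling, without the 3 shallow libraries and with only the compared groups, 2 passed with voom weights, and leaving out 1 library gave 0 to 1. For dcl4-2 against Col-0 on ABA, where 0 passed, 1 locus (MIR396a) passed with a pseudocount of 5, with voom weights and with only the compared groups. Without the 3 shallow libraries 1 locus passed in dcl4-2 against Col-0 on MS (MIR163), 1 in dcl4-2 dcl2-1 against dcl4-2 on MS (MIR163) and 1 in dcl4-2 dcl2-1 against Col-0 on MS (MIR172b). MIR172b had 8 reads against 0 there. It could be tested only because of its dcl4-2 dcl2-1 libraries on MS, so this call supports nothing. Leaving out 1 library gave 0 to 1 for dcl4-2 dcl2-1 against Col-0 on MS and for ABA against MS in dcl4-2 dcl2-1. Averaged over genotypes, where 6 passed, 3 passed without the filter, 0 with the other MIRNA loci made equal, and 4 to 7 with 1 library left out. With reads at genes other than NIA1 and NIA2 made equal, 0 passed in every comparison. The cause of these differences was not tested. Making the other MIRNA loci equal moved the median of all genes by -0.49 (log2) for ABA against MS in dcl4-2, where 10 genes were then higher and 17 lower, beside 302 and 16. It moved the median by 0.39 for dcl4-2 dcl2-1 against dcl4-2 on ABA, with 3 higher and 15 lower, beside 6 and 352. Equal reads at genes moved these medians by -0.40 and 0.39, with 10 higher and 10 lower, and 6 higher and 24 lower; for ABA against MS in Col-0 the median moved by -0.26, and averaged over genotypes by -0.24. That scaling, the voom weights, the removal of the 3 shallow libraries and the averaged comparison were chosen after seeing the data. No paired analysis was possible because the table holds group means and the recovered libraries carry no replicate number. A count model on the recovered reads was not run. Depth limits most of what is said of dcl4-2 dcl2-1 on MS, where 1 read in library C is worth 10.5 normalized counts.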
